A study of Mus musculus with 23 samples.

Results

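The genes that carry a cell through mitosis were followed in CD4+ T cells of mice, sorted into gates with and without CD25 and CD49f at their surface. CD25 is one chain of the receptor for interleukin-2 and is carried by most regulatory T cells, and CD49f is the integrin alpha 6 chain, part of a receptor for laminin. The members were 45 genes named for their roles at mitosis, a list drawn up with earlier results of these arrays known. Of these, 44 had a probe set that the array annotation gave to them alone, out of 18194 genes measured in that way, and Ccnb1 was not analysed here. Where a gene had several such probe sets, the one with the highest mean of all 23 arrays stood for it. Every array held total RNA of sorted T cells that the labels call female, numbered as biological replicates, and no treatment, strain or age is given in the sources used here. The CD25+CD49f+ gate had 4 arrays and the CD25+CD49f- gate 5, and each gate without CD25 had 7. The study's stated purpose was to compare expression among these populations.

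At mitosis, Cdk1 bound to a B-type cyclin phosphorylates the proteins that condense the chromosomes and build the spindle. The spindle checkpoint then holds back the anaphase-promoting complex until each chromosome is attached, after which Cdc20 and Ube2c let that complex destroy the cyclins and the cell divides. Most of these genes are transcribed late in the cell cycle and are kept low in resting cells, such as most circulating T cells, so their transcripts are commonly read as a sign of dividing cells. Many of their promoters hold a short element called CHR (cell cycle genes homology region) and CCAAT boxes. In the RNA of a sorted population, fewer dividing cells and less RNA per dividing cell cannot be told apart.

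Promoter windows were read from RefSeq on the mouse build GRCm38.p6, each from 250 bases before to 50 bases after an annotated start. There were 38 members with a window, 3 of them with 2 windows. Ccna2, Kif20a, Tpx2, Aurkb, Pbk, Smc4 and Dlgap5 had none in the table. The stretches printed here, each of the 120 bases before the start, are examples with matches in that part of the window, and Nusap1 is shown as a promoter without them. They are the stretches of Cdk1 (chr10:69352913-69353032, minus strand), Cks2 (chr13:51645112-51645231, plus strand), Cdc20 (chr4:118437344-118437463, minus strand), Ube2c (chr2:164769809-164769928, plus strand), Kif11 (chr19:37376262-37376381, plus strand) and Nusap1 (chr2:119618178-119618297, plus strand). Each runs 5′ to 3′ on the strand of its gene and ends at the base before the start. CHR matches after the start, as in Plk1 (position 31), Aurka (position 33) and many other members, cannot appear in such stretches. Capitals mark matches to a CHR element or a CCAAT box on either strand, and a CCAAT box on the other strand reads ATTGG.
Cdk1: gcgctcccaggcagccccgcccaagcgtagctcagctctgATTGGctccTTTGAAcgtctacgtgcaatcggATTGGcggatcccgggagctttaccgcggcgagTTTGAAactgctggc
Cks2: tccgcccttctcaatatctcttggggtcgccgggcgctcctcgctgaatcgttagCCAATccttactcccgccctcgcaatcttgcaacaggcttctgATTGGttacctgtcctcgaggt
Cdc20: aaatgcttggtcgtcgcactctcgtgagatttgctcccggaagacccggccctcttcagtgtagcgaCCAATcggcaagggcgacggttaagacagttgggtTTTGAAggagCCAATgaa
Ube2c: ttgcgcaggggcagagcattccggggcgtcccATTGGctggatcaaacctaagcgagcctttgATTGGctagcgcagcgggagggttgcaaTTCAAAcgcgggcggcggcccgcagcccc
Kif11: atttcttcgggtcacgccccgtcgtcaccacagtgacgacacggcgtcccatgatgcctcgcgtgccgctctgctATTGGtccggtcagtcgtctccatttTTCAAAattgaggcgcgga
Nusap1: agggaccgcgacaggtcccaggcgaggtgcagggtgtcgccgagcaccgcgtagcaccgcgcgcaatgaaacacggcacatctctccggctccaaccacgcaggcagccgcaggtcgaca

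The CHR element was searched with the letters TTTGAA and, in its other form, TTCGAA, and the CCAAT box with those of its name. The E2F site was searched with TTTGGCG, with the variant spelled TTTCGCG, and with a further one spelled TTTCCCG. All searches covered both strands, and a match to one motif was kept where it overlapped another. A CHR element was found in the windows of 30 of the 38 members (78.9%), against 21.7% of the 27025 genes of the promoter table. A CCAAT box was found in 31 members (81.6%) against 41.1% of all genes, and at least 2 CCAAT boxes in 21 members (55.3%) against 13.3%. Both motifs lay in the windows of 27 members (71.1%) and of 9.65% of all genes. Birc5, Melk, Mad2l1 and Nusap1 had neither. Among 25 DNA replication genes with a window, 6 (24%) held a CHR element and 15 (60%) an E2F site, whereas 6 mitosis genes (15.8%) held an E2F site, against 6.38% of all genes. The median CHR match began at position -15 from the start and the median CCAAT match at -65, as the plot of matches by distance shows. A match is a description of the letters only. The median log2 difference between CD25-CD49f+ and CD25-CD49f- cells was 1.92 over the 30 measured members with a CHR element and 2.64 over the 7 with a window but no element.

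**Figure D1:**
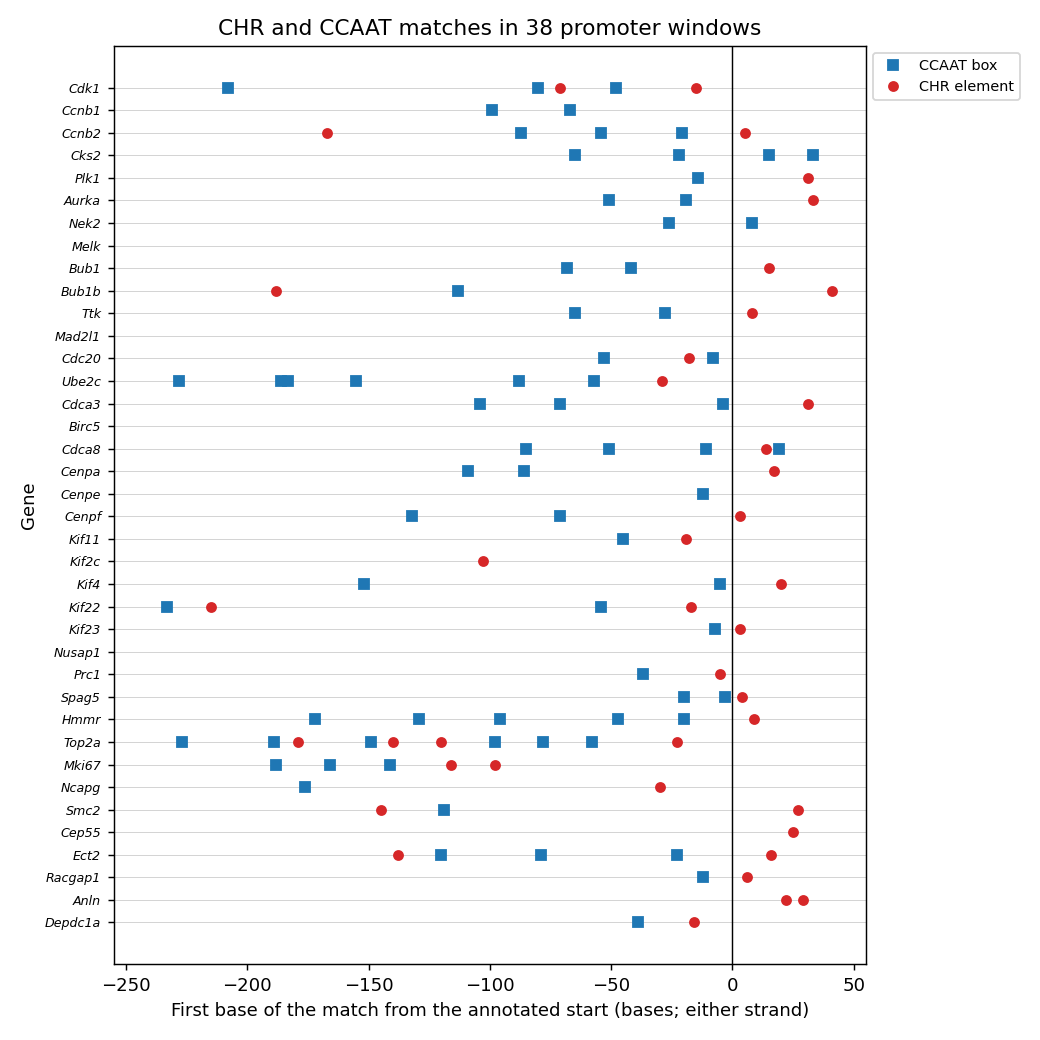
Positions of CHR elements (circles) and CCAAT boxes (squares) in the promoter windows of 38 mitosis genes, with the distance of the match from the annotated start in bases on the horizontal axis and 1 line per gene. CHR matches lie mostly close to the start, on either side of it, and CCAAT matches mostly before it. Where a gene has 2 windows, 1 is drawn, whereas the medians of -15 (CHR) and -65 (CCAAT) count the matches of both.

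The values are log2 expression values made by the authors with RMA. The number of arrays limits the precision. The values carry no detection calls. On arrays without the transcript, the probe set of Xist read up to 6.50 and those of the Y-linked genes Eif2s3y and Kdm5d up to 4.07, so the level that an absent transcript gives differs between probe sets and is not known for the members. Of the 44 members, 27 had a CD25-CD49f- mean below the highest of these Xist readings. In CD25+CD49f-, CD25+CD49f+ and CD25-CD49f+ cells 20, 12 and 2 did. Where a member is low in a group, its difference from that group may be understated and its rank among members is not settled. Differences were fitted with limma over all 18194 genes with the 4 gates in 1 fit, and a gene was called at a Benjamini-Hochberg adjusted p under 0.05; every adjusted p below is of that kind. The labels number the arrays as biological replicates but do not say whether they came from separate mice, so the p-values measure only the spread between these samples. Transcripts that define CD4+ T cells (7 measured of a list of 8, among them Cd3e, Cd4 and Cd5) had mean levels from 10.4 to 11.2 on every array. The CD8 genes Cd8a and Cd8b1 had means from 5.63 to 6.22. By array, the B cell list had means from 5.06 to 6.05 and the myeloid and dendritic cell list from 5.83 to 7.32. Some single markers of other cells were higher. Gate means ran from 10.81 to 11.47 for the plasma cell marker Jchain. They were 8.55 to 9.28 for the myeloid marker Lyz2 and 7.73 to 8.57 for Csf1r, against 9.12 to 9.68 for Cd4. The purity of the sorted cells was not tested. Although the labels say female, 11 arrays carried Y-linked transcripts, 3 of 7 in each CD25- gate, 3 of 5 in CD25+CD49f- and 2 of 4 in CD25+CD49f+ cells, and replicate 5 of CD25+CD49f- carried both these and Xist. Replicates 1 and 7 of CD25-CD49f-, replicate 1 of CD25-CD49f+ and replicate 5 of CD25+CD49f- correlated least with the other arrays of their gate, and the last of these had the largest difference between the 3' and 5' Actb control probe sets, 4.83 against at most 2.70 elsewhere. Transcripts of the sort markers did not all follow the gates: the mean level of Il2ra (CD25) was 5.42, 6.84, 9.69 and 9.60 in CD25-CD49f-, CD25-CD49f+, CD25+CD49f- and CD25+CD49f+ cells, that of Foxp3, which defines the regulatory lineage, was 4.74, 8.25, 9.79 and 9.85, and that of Itga6 (CD49f) was 9.79, 9.36, 9.64 and 9.81. Among CD25- cells Itga6 was thus called lower, not higher, in the CD49f+ gate (-0.44 ± 0.08, adjusted p = 0.000321), and its difference of 0.16 ± 0.10 between the CD25+ gates did not pass (adjusted p = 0.880).

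Mitosis genes were lowest in CD25-CD49f- cells, somewhat higher in CD25+CD49f- cells, higher again in CD25+CD49f+ cells and highest in CD25-CD49f+ cells. The mean level of the 44 genes was 6.31 ± 0.19 (SD, n = 7) in CD25-CD49f-, 6.81 ± 0.16 (SD, n = 5) in CD25+CD49f-, 7.43 ± 0.25 (SD, n = 4) in CD25+CD49f+ and 8.30 ± 0.26 (SD, n = 7) in CD25-CD49f+ cells. By array, these means ran from 6.05 to 6.55, from 6.58 to 6.99, from 7.18 to 7.66 and from 7.80 to 8.59 in that order, so no array of one gate overlapped the next. Of the 44 genes, 37 had their 4 group means in exactly this order, as did 4.76% of all genes. The remaining 7 were Kif23, Dlgap5, Hmmr, Melk, Smc4, Tpx2 and Cdca3, and are described in turn.

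**Figure D2:**
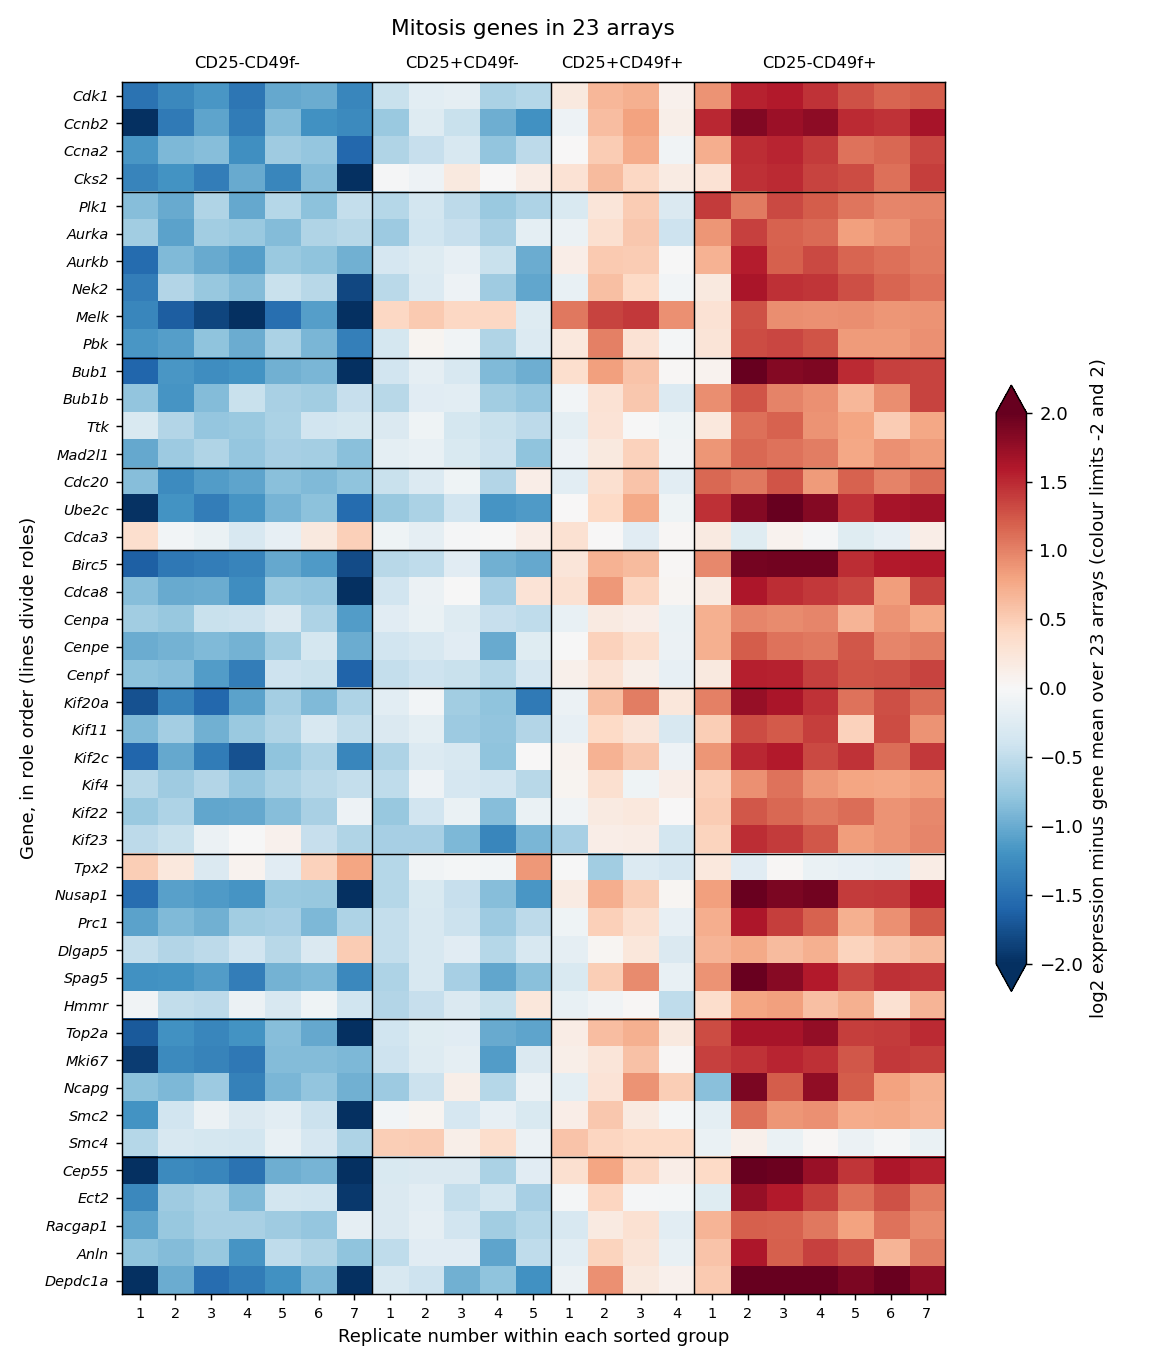
Heat map of 44 mitosis genes (vertical axis, in role order) on the 23 arrays (horizontal axis, by gate and replicate number), coloured by log2 expression minus the gene's mean over all arrays, with colours limited at -2 and 2. Most genes run from blue in CD25-CD49f- cells to red in CD25-CD49f+ cells, with both CD25+ gates in between. Tpx2 and Cdca3 do not, Smc4 is high in both CD25+ gates, and Melk is low only in CD25-CD49f- cells.

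Cdk1 and its partners come first. The level of Cdk1, the kinase that drives entry into mitosis, ranged from 5.71 through a median of 5.89 to 6.20 in CD25-CD49f- cells and from 8.08 through 8.46 to 8.77 in CD25-CD49f+ cells. In the CD25+ gates its levels were 6.73, 6.97, 7.01, 6.55 and 6.61 without CD49f and 7.38, 7.85, 7.89 and 7.26 with it. The 4 gates did not overlap for Cdk1 in any pair. It was higher with CD49f by 2.54 ± 0.12 (SE) among CD25- cells, a 5.83-fold difference (adjusted p = 8.76e-14), and by 0.82 ± 0.15 among CD25+ cells, 1.77-fold (adjusted p = 0.00153). Ccnb2, a B-type cyclin, had levels from 5.28 (median 6.01) to 6.42 in CD25-CD49f- and from 8.73 (median 8.93) to 9.14 in CD25-CD49f+ cells. The CD25+CD49f- arrays read 6.55, 7.02, 6.84, 6.31 and 6.07 for Ccnb2 and the CD25+CD49f+ arrays 7.18, 7.90, 8.09 and 7.40. All CD25+CD49f+ arrays lay above all CD25+CD49f- arrays and below all CD25-CD49f+ arrays, while the CD49f- gates overlapped. The Ccnb2 difference with CD49f was 2.95 ± 0.16 in CD25- cells (adjusted p = 1.29e-12) and 1.09 ± 0.20 in CD25+ cells (adjusted p = 0.00201). Ccna2, the A-type cyclin that is destroyed early in mitosis, was higher with CD49f in both CD25 gates, by 2.27 ± 0.14 and 0.84 ± 0.18. Cks2, a small subunit that binds Cdk1, was higher by 2.64 ± 0.23 in CD25- cells (adjusted p = 3.60e-09), while its difference of 0.34 ± 0.29 in CD25+ cells did not pass (adjusted p = 0.975).

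Among the mitotic kinases, Plk1, which matures centrosomes and promotes mitotic exit, had levels from 5.16 (median 5.35) to 5.71 in CD25-CD49f- and from 7.15 (median 7.25) to 7.58 in CD25-CD49f+ cells. Its CD25+CD49f- levels were 5.61, 5.81, 5.65, 5.44 and 5.55, and its CD25+CD49f+ levels were 5.87, 6.41, 6.69 and 5.89. The CD49f- gates shared one range for Plk1, the CD25+CD49f+ arrays lay above them, and the CD25-CD49f+ arrays lay above all others. The difference between CD25+CD49f+ and CD25-CD49f+ cells was -1.10 ± 0.14 (adjusted p = 4.37e-06), and that between the CD49f- gates, 0.20 ± 0.13, did not pass (adjusted p = 0.396). Aurka, a kinase of spindle poles, read from 5.18 (median 5.56) to 5.70 in CD25-CD49f- and from 7.07 (median 7.27) to 7.61 in CD25-CD49f+ cells. For Aurka the CD25+CD49f- arrays stood at 5.53, 5.86, 5.78, 5.60 and 6.06 and the CD25+CD49f+ arrays at 6.13, 6.57, 6.79 and 5.84. Replicate 4 of CD25+CD49f+ fell inside the CD25+CD49f- range. Aurka was higher with CD49f in CD25- cells by 1.79 ± 0.12 (adjusted p = 5.99e-11), and the CD25+ difference of 0.57 ± 0.16 did not pass (adjusted p = 0.0635). Aurkb, the kinase of the chromosomal passenger complex, passed in both CD25 gates, by 2.16 ± 0.14 and 0.73 ± 0.18. Nek2, a centrosome kinase, and Pbk, a kinase of dividing cells, were higher by 2.09 ± 0.22 and 1.96 ± 0.16 in CD25- cells.

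Melk, a kinase first described in early embryos and stem cells, did not follow the common order. Its level was 3.37 to 5.11 (median 4.55) in CD25-CD49f- cells and 6.50 to 7.49 (median 7.12) in CD25-CD49f+ cells, and it was 6.63, 6.73, 6.63, 6.62 and 5.96 in CD25+CD49f- and 7.26, 7.56, 7.62 and 7.12 in CD25+CD49f+ cells. CD25-CD49f- cells stood below every other array, and the CD49f+ gates overlapped. Melk had the largest measured difference of any member between the CD49f- gates, 2.07 ± 0.21, or 4.19-fold higher in CD25+ cells (adjusted p = 5.70e-08), against a CD25-CD49f- level not shown to be above background. It was the only member besides Smc4 whose mean was highest in CD25+CD49f+ cells, at 0.30 ± 0.23 above CD25-CD49f+ cells, which did not pass (adjusted p = 0.719).

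Spindle checkpoint genes keep anaphase waiting until kinetochores are attached. Bub1, a checkpoint kinase, had levels from 4.24 (median 5.07) to 5.35 in CD25-CD49f- and from 6.34 (median 7.76) to 8.38 in CD25-CD49f+ cells. CD25+CD49f- arrays gave 5.87, 6.08, 5.94, 5.38 and 5.28 for Bub1 and CD25+CD49f+ arrays 6.59, 7.08, 6.83 and 6.29. Replicate 1 of CD25-CD49f+, at 6.34, was the single array of its gate inside the CD25+CD49f+ range. Bub1 was higher with CD49f by 2.74 ± 0.23 in CD25- cells (adjusted p = 2.02e-09), and the 0.99 ± 0.29 in CD25+ cells did not pass (adjusted p = 0.108) although the groups did not overlap. Bub1b, which codes the checkpoint protein BubR1, ranged from 5.26 (median 5.76) to 6.01 in CD25-CD49f- and from 7.12 (median 7.37) to 7.79 in CD25-CD49f+ cells. Its levels were 5.89, 6.22, 6.24, 5.75 and 5.68 in CD25+CD49f- and 6.39, 6.74, 6.99 and 6.18 in CD25+CD49f+ cells. CD25-CD49f+ cells were apart from the other 3 gates, which overlapped with their neighbours. The Bub1b difference of 1.73 ± 0.13 in CD25- cells passed (adjusted p = 4.44e-10) and that of 0.62 ± 0.17 in CD25+ cells did not (adjusted p = 0.0602). Mad2l1, the checkpoint protein that binds Cdc20, was higher with CD49f by 1.71 ± 0.10 in CD25- and 0.50 ± 0.13 in CD25+ cells, both called. Ttk, the kinase that starts checkpoint signalling, was higher by 1.32 ± 0.12 in CD25- cells.

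Of the partners of the anaphase-promoting complex, Cdc20, its activator, had levels from 7.94 (median 8.32) to 8.40 in CD25-CD49f- and from 10.05 (median 10.31) to 10.46 in CD25-CD49f+ cells. In CD25+CD49f- cells Cdc20 read 8.75, 8.93, 9.11, 8.62 and 9.33 and in CD25+CD49f+ cells 8.98, 9.51, 9.77 and 8.99. The CD25+ gates overlapped each other and lay apart from both CD25- gates. Cdc20 was thus 0.72 ± 0.13 higher in CD25+ than in CD25- cells without CD49f (adjusted p = 0.000265) and 0.97 lower with it (-0.97 ± 0.14, adjusted p = 3.69e-05), with 0.36 ± 0.15 between the CD25+ gates (adjusted p = 0.496). Ube2c, the ubiquitin-conjugating enzyme of the complex, ranged from 6.03 (median 6.81) to 7.19 and from 9.45 (median 9.68) to 10.13 in the CD25- gates without and with CD49f. Its CD25+ levels were 7.25, 7.37, 7.62, 6.83 and 6.88 without CD49f and 8.01, 8.40, 8.76 and 7.92 with it. No CD49f+ array overlapped a CD49f- array, and the CD25+CD49f+ arrays lay below all CD25-CD49f+ arrays. Ube2c was higher with CD49f 8.02-fold in CD25- cells (3.0 ± 0.17, adjusted p = 1.32e-12) and 2.12-fold in CD25+ cells (1.08 ± 0.21, adjusted p = 0.00257). Cdca3, a trigger of entry into mitosis, read 6.53 ± 0.29 (SD, n = 7), 6.45 ± 0.12 (SD, n = 5), 6.51 ± 0.22 (SD, n = 4) and 6.44 ± 0.18 (SD, n = 7) in CD25-CD49f-, CD25+CD49f-, CD25+CD49f+ and CD25-CD49f+ cells, all overlapping.

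Birc5, which codes survivin of the chromosomal passenger complex, ranged from 5.73 (median 6.14) to 6.48 in CD25-CD49f- and from 8.48 (median 9.12) to 9.44 in CD25-CD49f+ cells. The CD25+CD49f- levels of Birc5 were 6.95, 7.0, 7.29, 6.55 and 6.49, and the CD25+CD49f+ levels were 7.76, 8.20, 8.14 and 7.54. As with Cdk1, no 2 gates overlapped. Birc5 was 8.11-fold higher with CD49f in CD25- cells (3.02 ± 0.16, adjusted p = 3.63e-13) and 2.08-fold higher in CD25+ cells (1.05 ± 0.19, adjusted p = 0.00176). Cdca8, which codes borealin of the same complex, ranged from 5.09 (median 7.43) to 7.67 and from 8.60 (median 9.77) to 10.03 in the CD25- gates without and with CD49f. Its levels were 8.04, 8.30, 8.41, 7.75 and 8.69 in CD25+CD49f- and 8.73, 9.29, 8.84 and 8.46 in CD25+CD49f+ cells. Replicate 7 of CD25-CD49f-, at 5.09, lay far below the other 6 arrays of its gate, which began at 7.17. Cdca8 was higher by 2.45 ± 0.30 in CD25- cells (adjusted p = 1.01e-06), and 0.59 ± 0.38 in CD25+ cells did not pass (adjusted p = 0.890). The centromere genes Cenpa (the centromeric histone), Cenpe (a kinetochore motor) and Cenpf (a kinetochore protein) were higher with CD49f in CD25- cells by 1.47 ± 0.10, 1.87 ± 0.13 and 2.17 ± 0.18.

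Mitotic kinesins move chromosomes and spindle fibres. Kif20a, needed for cytokinesis, had levels from 4.33 (median 5.0) to 5.46 in CD25-CD49f- and from 7.07 (median 7.36) to 7.80 in CD25-CD49f+ cells. In the CD25+ gates Kif20a read 5.85, 6.01, 5.37, 5.26 and 4.65 without CD49f and 5.96, 6.68, 7.09 and 6.29 with it. Neighbouring gates in the common order overlapped at their edges, and CD25-CD49f+ arrays lay above both CD49f- gates. The difference with CD49f was 2.45 ± 0.21 in CD25- cells (adjusted p = 1.82e-09) and 1.07 ± 0.26 in CD25+ cells (adjusted p = 0.0248). Kif11, which pushes the spindle poles apart, ranged from 5.49 (median 5.77) to 6.14 and from 6.92 (median 7.67) to 7.83 in the CD25- gates without and with CD49f. Its CD25+CD49f- levels were 6.16, 6.26, 5.72, 5.66 and 5.86, and its CD25+CD49f+ levels were 6.30, 6.86, 6.69 and 6.14. The CD49f- gates shared a range and CD25-CD49f+ cells lay above every other array. Kif11 was higher by 1.67 ± 0.15 in CD25- cells (adjusted p = 8.80e-09), while 0.56 ± 0.19 in CD25+ cells did not pass (adjusted p = 0.248). Kif2c, Kif4 and Kif22, which act on microtubule ends and chromosome arms, were higher with CD49f in CD25- cells by 2.54 ± 0.17, 1.43 ± 0.09 and 1.71 ± 0.14.

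Kif23, a kinesin of the central spindle, was the one member called lower in CD25+ cells among CD49f- cells. Its level was 6.17 to 6.84 (median 6.32) in CD25-CD49f- and 7.20 to 8.24 (median 7.74) in CD25-CD49f+ cells, and it was 6.09, 6.11, 5.87, 5.46 and 5.85 in CD25+CD49f- and 6.10, 6.90, 6.92 and 6.40 in CD25+CD49f+ cells. Every CD25+CD49f- array lay below every CD25-CD49f- array. The difference was -0.59 ± 0.17 (adjusted p = 0.0206), and without replicate 4 of CD25+CD49f- it was -0.49 and did not pass (adjusted p = 0.0859).

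Spindle assembly factors organise microtubules. Nusap1, which bundles them, ranged from 4.82 (median 6.35) to 6.73 in CD25-CD49f- and from 8.29 (median 9.08) to 9.45 in CD25-CD49f+ cells. Its CD25+ levels were 6.90, 7.17, 7.01, 6.62 and 6.32 without CD49f and 7.65, 8.21, 7.96 and 7.52 with it. The CD49f- gates overlapped each other, while CD25+CD49f+ arrays lay above both and below all CD25-CD49f+ arrays. Nusap1 was 7.30-fold higher with CD49f in CD25- cells (2.87 ± 0.23, adjusted p = 7.80e-10), and the 1.03 ± 0.29 in CD25+ cells did not pass (adjusted p = 0.0728). Spag5 and Prc1, which tie spindle fibres together, were higher with CD49f in both CD25 gates, Spag5 by 2.65 ± 0.17 and 0.94 ± 0.21 and Prc1 by 1.94 ± 0.13 and 0.63 ± 0.16. Dlgap5 and Hmmr, which stabilise spindle fibres, were higher with CD49f in CD25- cells by 0.95 ± 0.13 and 0.89 ± 0.12, and their CD25+CD49f- and CD25-CD49f- means differed by -0.06 and -0.03 only, which did not pass.

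Tpx2, which activates Aurka at the spindle, had levels of 6.94 to 8.02 (median 7.44) in CD25-CD49f- and of 7.0 to 7.43 (median 7.09) in CD25-CD49f+ cells by the probe set with its highest mean. The same probe set read 6.66, 7.15, 7.18, 7.17 and 8.09 in CD25+CD49f- and 7.21, 6.53, 6.95 and 6.89 in CD25+CD49f+ cells. All gates overlapped, and the difference with CD49f was -0.27 ± 0.17 in CD25- cells (adjusted p = 0.404) and -0.35 ± 0.22 in CD25+ cells (adjusted p = 0.880). Other probe sets of Tpx2 read differently. In a fit over every probe set, 2 of its 3 others were higher with CD49f in CD25- cells, by 2.60 ± 0.19 and 0.95 ± 0.09 (adjusted p = 3.19e-10 and 4.42e-08), and the third by -0.27 ± 0.17, uncalled. Cdca3 had the same split, with 1 of its other probe sets higher by 2.04 ± 0.11 (adjusted p = 5.01e-12) and the other at -0.05 ± 0.10. Over all members, 31 had further probe sets, 56 in number. In CD25- cells 49 of those 56 moved with CD49f in the direction of the one used, and 34 were called, all higher. For CD49f in CD25+ cells 49 shared the direction, but only 7 were called, all higher. For CD25, 46 shared it and 27 were called among CD49f+ cells, all lower. Among CD49f- cells 38 shared it and 8 were called, all higher.

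Among genes of chromosome structure, Top2a, the enzyme that untangles sister DNA, ranged from 6.54 (median 7.43) to 7.80 in CD25-CD49f- and from 9.96 (median 10.14) to 10.41 in CD25-CD49f+ cells. For Top2a the CD25+CD49f- arrays gave 8.25, 8.40, 8.42, 7.64 and 7.60 and the CD25+CD49f+ arrays 8.80, 9.26, 9.36 and 8.84. CD49f- gates overlapped at their edges, and CD25+CD49f+ cells stood between them and CD25-CD49f+ cells without overlap. Top2a was 7.25-fold higher with CD49f in CD25- cells (2.86 ± 0.17, adjusted p = 3.41e-12) and 2.01-fold in CD25+ cells (1.0 ± 0.21, adjusted p = 0.0058). Mki67, which codes the proliferation antigen Ki-67 that coats mitotic chromosomes, ranged from 7.18 (median 7.80) to 8.21 and from 10.33 (median 10.49) to 10.61 in the CD25- gates without and with CD49f. Its CD25+ levels were 8.66, 8.81, 8.90, 7.95 and 8.78 without CD49f and 9.20, 9.32, 9.66 and 9.10 with it. The CD25+ gates did not overlap for Mki67. Its difference of 2.63 ± 0.15 in CD25- cells passed (adjusted p = 1.89e-12), and that of 0.70 ± 0.19 in CD25+ cells just missed (adjusted p = 0.0503). Ncapg and Smc2, condensin subunits, were higher with CD49f in CD25- cells by 1.89 ± 0.28 and 1.40 ± 0.25.

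Smc4, another condensin subunit, was higher in both CD25+ gates. Its level was 10.87 to 11.33 (median 11.14) in CD25-CD49f- and 11.34 to 11.59 (median 11.37) in CD25-CD49f+ cells, and it was 11.98, 12, 11.60, 11.83 and 11.37 in CD25+CD49f- and 12.05, 11.91, 11.89 and 11.88 in CD25+CD49f+ cells. CD25+CD49f+ arrays lay above all CD25- arrays, and the CD25+ gates overlapped. Smc4 was the only member called higher with CD25 among CD49f+ cells (0.51 ± 0.11, adjusted p = 0.00221), and it was 0.66 ± 0.10 higher with CD25 among CD49f- cells (adjusted p = 1.62e-05). Its CD49f differences were small, 0.32 ± 0.09 in CD25- cells (adjusted p = 0.014) and 0.18 ± 0.11 in CD25+ cells (adjusted p = 0.893).

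The last group acts in cytokinesis, the splitting of the daughter cells. Cep55, which recruits the abscission machinery to the midbody, ranged from 5.18 (median 6.48) to 6.86 in CD25-CD49f- and from 8.18 (median 9.40) to 9.84 in CD25-CD49f+ cells. CD25+CD49f- arrays read 7.47, 7.50, 7.50, 7.15 and 7.55 for Cep55 and CD25+CD49f+ arrays 8.10, 8.57, 8.20 and 7.91. The gates overlapped only where replicate 1 of CD25-CD49f+ came down to 8.18. Cep55 was 8.26-fold higher with CD49f in CD25- cells (3.05 ± 0.23, adjusted p = 2.41e-10) and 2.25-fold higher with CD25 in CD49f- cells (1.17 ± 0.25, adjusted p = 0.00144). Ect2, which activates the contractile ring, ranged from 4.88 (median 6.10) to 6.44 and from 6.56 (median 8.08) to 8.55 in the CD25- gates without and with CD49f. Its CD25+CD49f- levels were 6.52, 6.59, 6.33, 6.45 and 6.15, and its CD25+CD49f+ levels were 6.77, 7.23, 6.79 and 6.78. Replicate 1 of CD25-CD49f+, at 6.56, lay below all CD25+CD49f+ arrays, unlike the rest of its gate. Ect2 was higher by 2.01 ± 0.24 in CD25- cells (adjusted p = 6.77e-07), and 0.48 ± 0.30 in CD25+ cells did not pass (adjusted p = 0.880). Racgap1, the partner of Kif23 at the central spindle, and Anln, a scaffold of the ring, were higher by 1.68 ± 0.12 and 1.89 ± 0.15 in CD25- cells. Depdc1a, a gene of dividing cells, had the largest measured CD49f difference of all members, with levels of 3.11 to 4.51 (median 4.0) in CD25-CD49f- and 5.92 to 7.85 (median 7.38) in CD25-CD49f+ cells, a 10.2-fold difference in measured values (3.36 ± 0.25, adjusted p = 2.63e-10). Its CD25-CD49f- level was not shown to be above background either.

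**Figure D3:**
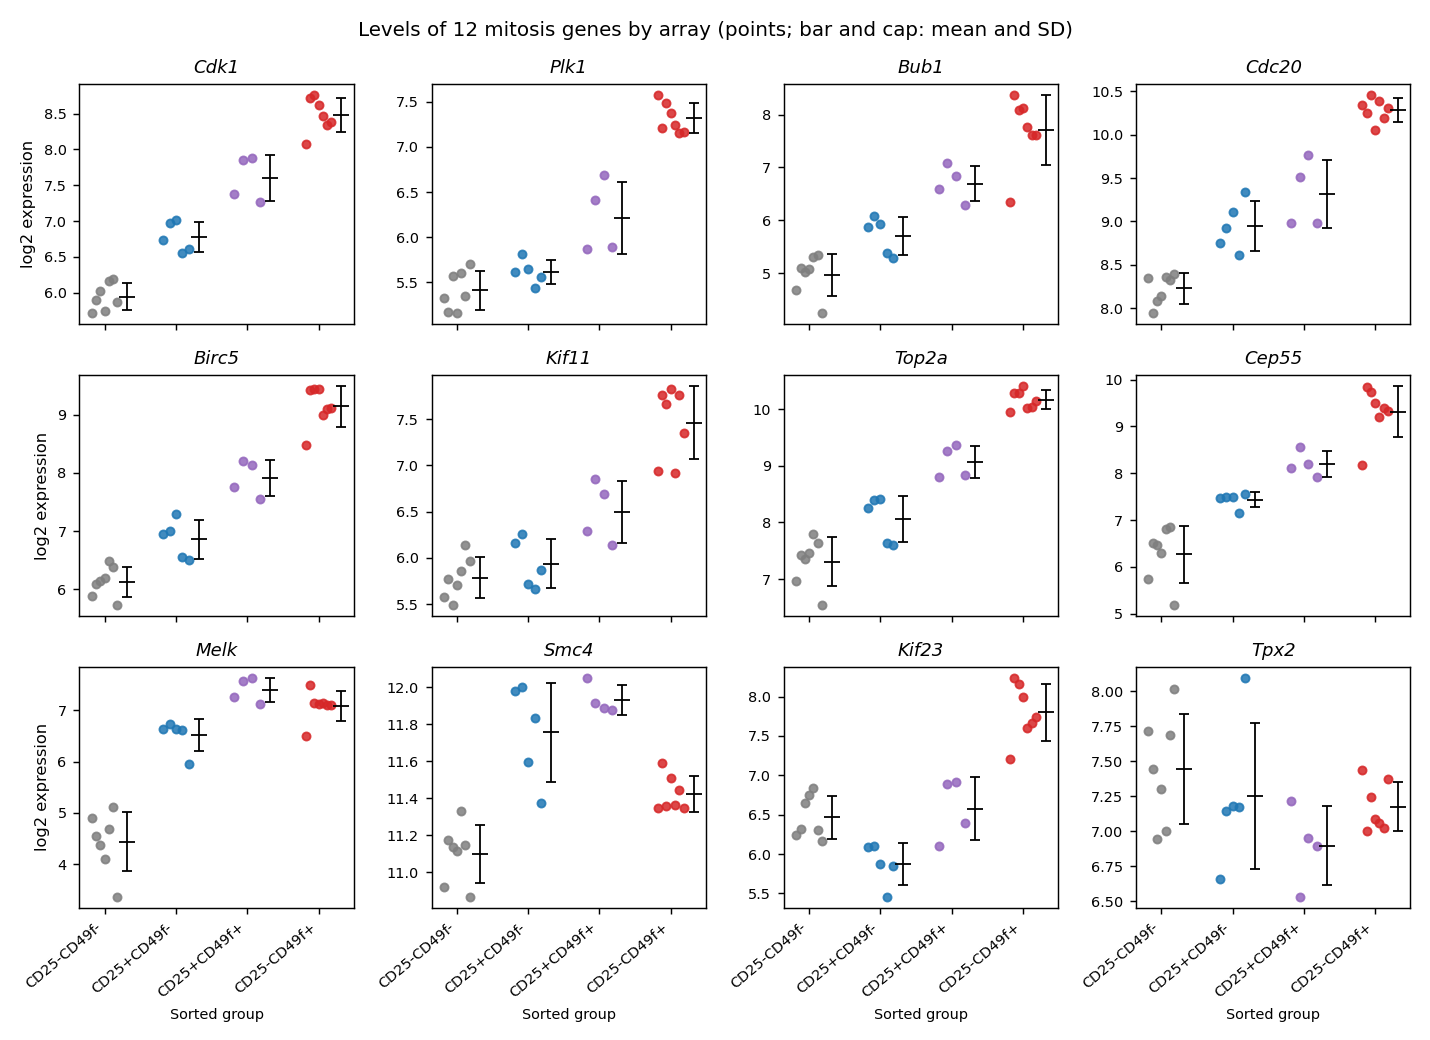
Log2 expression (vertical axes) of 12 mitosis genes in each array (points) of the 4 gates (horizontal axes), with the mean and SD of a gate beside its points. In the panels of Cdk1 and Birc5 no 2 gates overlap; Melk is highest in CD25+CD49f+ cells, Smc4 is high in both CD25+ gates, Kif23 is lowest in CD25+CD49f- cells, and the Tpx2 probe set used does not separate the gates.

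Within CD25- cells, the comparison of CD49f+ with CD49f- cells asked how the CD49f gate divides cells without CD25. Here 42 of 44 mitosis genes were higher in CD49f+ cells and 0 were lower in limma, with 42 higher and 0 lower at an unadjusted p under 0.05. Over all genes 13.4% were called, 8.01% higher and 5.42% lower, and 23.3% had an unadjusted p under 0.05. The median difference of the members was 1.98, against -0.02 over all genes. Differences of at least 1 were seen in 39 members and of at least 2 in 22. In 39 members all CD49f+ arrays lay above all CD49f- arrays, as they did in 4.07% of all genes. The largest differences were those of Depdc1a (3.36), Cep55 (3.05) and Birc5 (3.02), and the lowest were those of Tpx2 (-0.27), Cdca3 (-0.09) and Smc4 (0.32). With any 1 array left out, 42 members stayed called, and the medians were 2.02 among arrays without Y-linked transcripts and 1.99 among Y-linked arrays without Xist. In the same comparison 3 of 9 measured myeloid and dendritic cell markers were lower in CD49f+ cells, Itgax by 1.92, Siglech by 1.36 and Flt3 by 0.51, and Dntt of 5 thymocyte markers fell by 0.49. Of 5 NK cell markers Prf1 fell by 1.48 and Eomes was higher by 0.55, Irf4 and Prdm1 of 6 plasma cell markers were higher by 1.43 and 0.49, and Klf1 of 5 erythroid markers was higher by 0.42. Foxp3 and Il2ra were higher in CD25-CD49f+ cells by 3.51 ± 0.12 and 1.42 ± 0.11. The mean of the 9 measured myeloid and dendritic cell markers ranged from 6.30 to 7.32 in CD25-CD49f- and from 6.22 to 6.64 in CD25-CD49f+ cells. The part of these genes in the result was not tested.

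Within CD25+ cells, the same contrast asked how CD49f divides the cells that carry CD25. Here 14 of 44 members were higher in CD49f+ cells and 0 were lower in limma, and at an unadjusted p under 0.05 there were 35 higher and 0 lower. Over all genes 1.82% were called, 0.352% higher and 1.47% lower, and 7.34% had an unadjusted p under 0.05. The median member difference was 0.61, against 0.01 over all genes, and 43 of 44 differences were above 0. Groups did not overlap in 23 members, all higher with CD49f, as in 1.72% of all genes. The 14 were Cdk1, Ccnb2, Ccna2, Plk1, Aurkb, Mad2l1, Ube2c, Birc5, Cenpe, Kif20a, Kif4, Prc1, Spag5 and Top2a. The largest differences were those of Ccnb2 (1.09), Ube2c (1.08) and Kif20a (1.07), and the lowest were those of Tpx2 (-0.35), Cdca3 (0.06) and Hmmr (0.14). Of the cell type markers, Prdm1 (-0.95, adjusted p = 0.00198) and Eomes (-0.75, adjusted p = 0.0248) were lower and Cd28 (0.51, adjusted p = 0.0495) higher in the same comparison, and their part in the result was not tested.

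With each array left out in turn, 5 of the 14 stayed called throughout: Cdk1, Ccnb2, Ube2c, Birc5 and Top2a. The count of called members fell to 5 without replicate 2 of CD25+CD49f+, to 6 without its replicate 3 and to 8 without replicate 4 of CD25+CD49f-, with medians of 0.51, 0.55 and 0.53. Without replicate 3 of CD25+CD49f+ the adjusted p was 0.0735 for Ccna2, 0.209 for Plk1, 0.127 for Aurkb, 0.263 for Mad2l1, 0.170 for Kif20a and 0.102 for Spag5. Without its replicate 2 it was 0.230 for Cenpe, 0.0988 for Kif4 and 0.220 for Prc1. Replicates 2 and 3 held the highest value of their gate in 21 and 20 members, and replicates 1 and 4 the lowest in 17 and 24. Each of these pairs holds 1 array with Y-linked transcripts and 1 without. In CD25+CD49f- cells replicates 2 and 3 likewise held the highest value in 19 and 15 members. Replicates 4 and 5 of that gate held the lowest in 20 and 17. Without the 4 arrays that stood apart, 27 members were called, with a median of 0.61. Arrays without Y-linked transcripts gave a median of 0.57 and Y-linked arrays without Xist 0.64. Neither set held any called member in limma, with 22 and 26 higher and 0 lower at an unadjusted p under 0.05.

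The test of the interaction set the CD49f difference in CD25+ cells against that in CD25- cells. It was lower in CD25+ cells for 37 of 44 members and higher for 0 in limma, with 41 lower and 0 higher at an unadjusted p under 0.05. Over all genes 5.31% were called, 4.33% lower and 0.984% higher, and 14% had an unadjusted p under 0.05. The median interaction was -1.35, against 0.03 over all genes. The most negative measured values, in which low CD49f- levels enter, were those of Depdc1a (-2.34 ± 0.41), Cks2 (-2.31 ± 0.37) and Cep55 (-2.29 ± 0.37), with adjusted p of 0.000396, 0.000159 and 0.000153. At the other end were Cdca3 (0.15), Tpx2 (-0.09) and Smc4 (-0.15). Calls of Nek2, Cdca8 and Hmmr were lost when 1 array of CD25+CD49f+ cells was left out, at adjusted p of 0.0567 (Nek2, without replicate 1), 0.0573 (Cdca8) and 0.0670 (Hmmr, both without replicate 4). Y-linked arrays without Xist left 8 members called, with a median of -1.33, and arrays without Y-linked transcripts gave a median of -1.50.

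**Figure D4:**
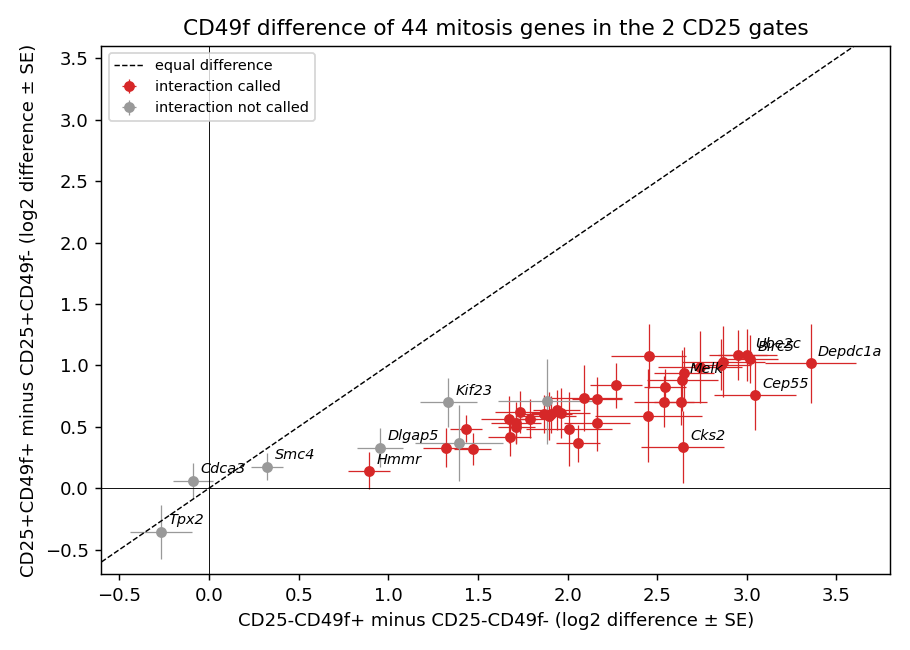
Log2 difference with CD49f in CD25- cells (horizontal axis) against that in CD25+ cells (vertical axis) for 44 mitosis genes, with standard errors; the dashed line marks equal differences and red points are genes called in the interaction. All points but that of Cdca3 lie right of the line; Depdc1a is farthest right, at 3.36, and Ccnb2 highest, at 1.09.

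Among CD49f+ cells, mitosis genes were lower where CD25 was present. Of 44 members 35 were lower in the CD25+ than in the CD25- gate and 1, Smc4, was higher, while over all genes 5.72% were called, 2.91% lower and 2.81% higher, and 13.2% had an unadjusted p under 0.05. The median member difference was -0.95, against 0.02 over all genes. In 25 members every CD25+ array lay below every CD25- array, as in 3.9% of all genes. Depdc1a (-1.60 ± 0.30, adjusted p = 0.000756), Ube2c (-1.45 ± 0.19, adjusted p = 1.15e-05) and Ccnb2 (-1.27 ± 0.19, adjusted p = 4.85e-05) had the largest decreases. At the other end were Smc4 (0.51), Melk (0.30) and Cdca3 (0.07). The calls of Nek2, Bub1, Kif20a, Cep55 and Ect2 were lost without single arrays, at adjusted p of 0.0973, 0.131, 0.168, 0.0523 and 0.0834. Replicates 1 and 4 of CD25+CD49f+ were the arrays whose absence gave those values, replicate 1 for Nek2, Kif20a and Ect2 and replicate 4 for Bub1 and Cep55. Of the cell type markers, Cd4 was called, at -0.41, and its part in the result was not tested. Y-linked arrays without Xist left 8 members called with a median of -0.90, and arrays without Y-linked transcripts gave -0.96.

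Among CD49f- cells the sign was the other way. There 16 of 44 members were higher in CD25+ cells and 1, Kif23, was lower, while over all genes 14% were called, 9.34% higher and 4.68% lower, and 23.2% had an unadjusted p under 0.05. The median difference was 0.48, against -0.01 over all genes, and groups did not overlap in 10 members that were higher and 1 that was lower, against 5.68% and 2.42% of all genes. Melk (2.07), Cks2 (1.49 ± 0.25, adjusted p = 0.000107) and Cep55 (1.17) had the largest differences, and Kif23 (-0.59), Tpx2 (-0.19) and Cdca3 (-0.08) the lowest. By role, those called higher were all 4 measured genes of Cdk1, the cyclins and Cks2, 3 of 6 mitotic kinases and 3 of 5 chromosome structure genes. They were 2 of 5 passenger complex and centromere genes, 1 of 4 checkpoint genes and 1 of 3 partners of the anaphase-promoting complex. The rest were 1 of 6 kinesins, 1 of 5 genes of cytokinesis with Depdc1a and 0 of 6 spindle assembly factors. The calls of Ccnb2, Ccna2, Mad2l1, Cdca8 and Kif23 were lost without single arrays, the largest adjusted p being 0.116, for Ccna2 without replicate 3 of CD25+CD49f-. For the others it was 0.10 for Ccnb2 and 0.0764 for Mad2l1 without replicate 2, 0.0669 for Cdca8 without replicate 5 and 0.0859 for Kif23 without replicate 4 of that gate. Arrays without Y-linked transcripts left 10 members called (median 0.55) and Y-linked arrays without Xist 3 (median 0.43). As in the CD25- contrast, Itgax, Siglech and Flt3 were lower with CD25 here, by 2.42, 1.33 and 0.55. Other cell type markers moved too: Eomes (1.28), Ncr1 (0.34), Irf4 (1.34), Prdm1 (1.14) and Xbp1 (0.84) were called higher. Prf1 (-1.54), Blnk (-0.80), Dntt (-0.63), Klf1 (-0.59), Tnfrsf17 (-0.41) and the T cell genes Cd247 (-0.46), Cd28 (-0.37) and Cd4 (-0.28) were called lower. The part of these markers in the result was not tested.

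**Figure D5:**
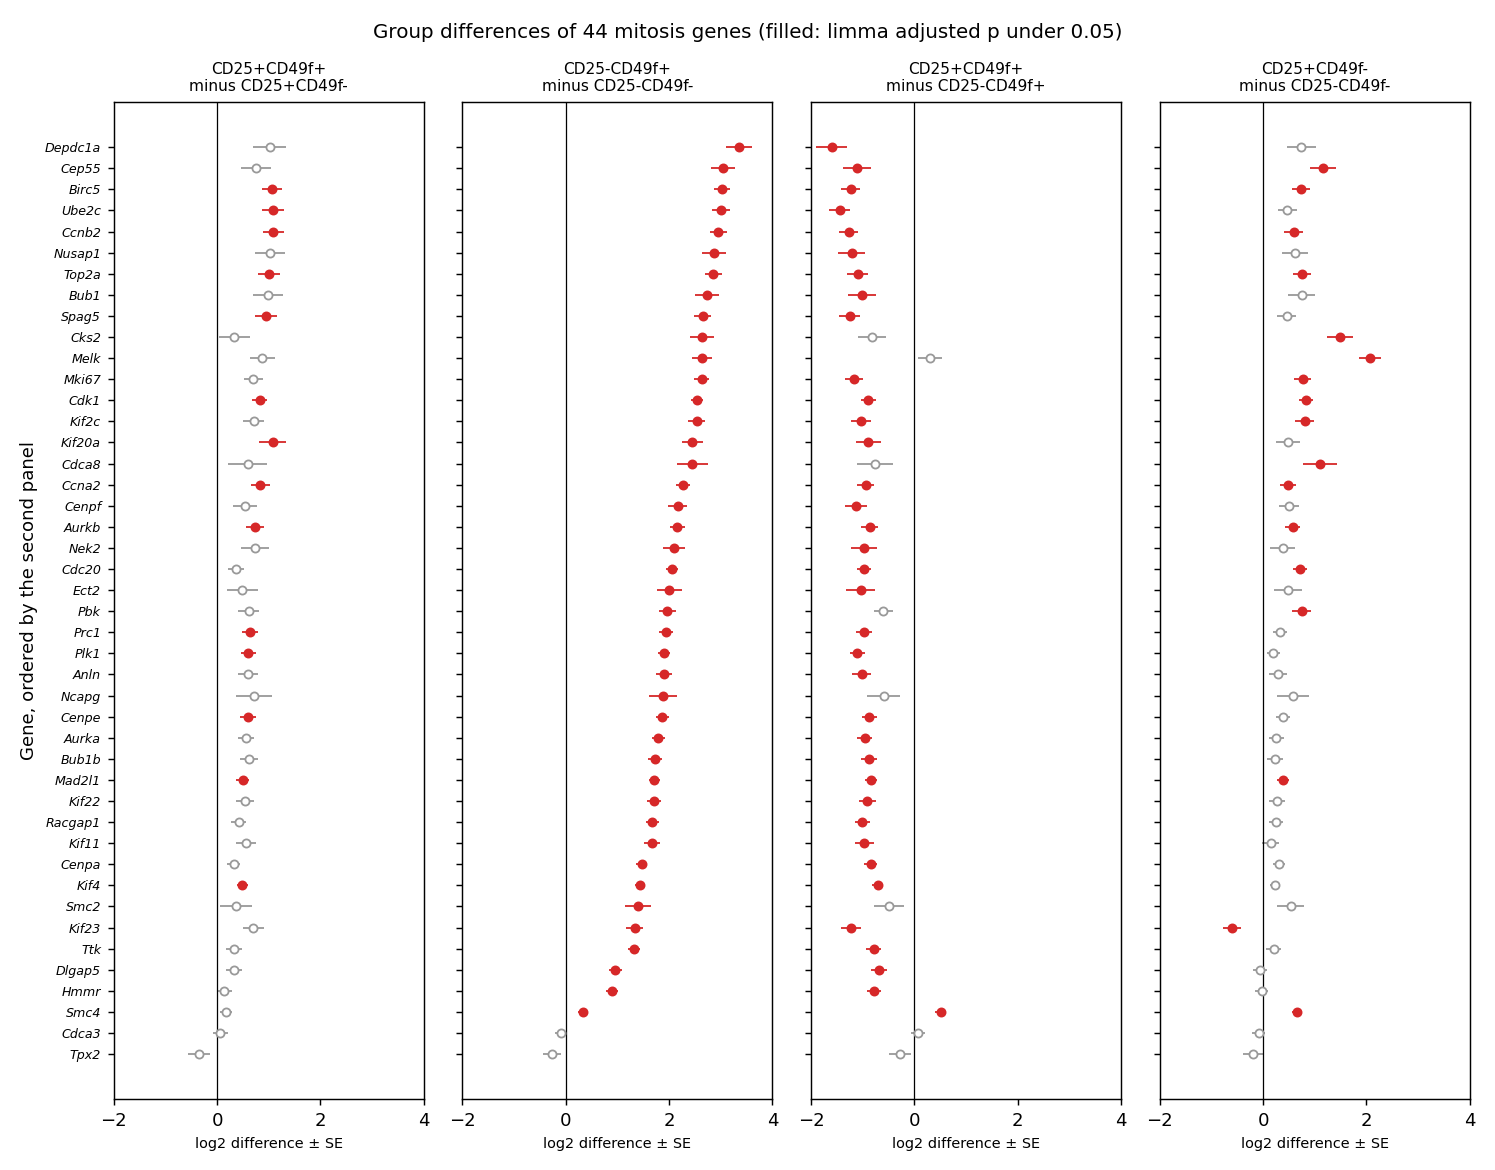
Log2 differences with standard errors of 44 mitosis genes in 4 comparisons of gates (panels), ordered by the difference with CD49f in CD25- cells; filled points had a limma adjusted p under 0.05. In the second panel 42 points are filled, all higher; in the first 14 are filled, all higher; the third has 35 lower and Smc4 higher; the fourth has 16 higher and Kif23 lower.

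The comparisons share groups, so their member counts are not independent. Taken side by side, 7 members were called in each of the 4 pairwise comparisons: Aurkb, Birc5, Ccna2, Ccnb2, Cdk1, Mad2l1 and Top2a. Over all genes 0.506% were called in all 4. Another way to set the gates side by side is to place each CD25+ gate on the log2 distance between the CD25- gates, with CD25-CD49f- at 0% and CD25-CD49f+ at 100%, for the 39 members where that distance was at least 1. That distance both picks these members and sets the scale, so the positions only describe them. It leaves out Smc4, Dlgap5, Hmmr, Tpx2 and Cdca3. For many members the CD25-CD49f- level placed at 0% was not shown to be above background. CD25+CD49f- cells stood at a median of 21.6% (interquartile range 16.2% to 29.9%) and CD25+CD49f+ cells at 53.2% (48.0% to 62.3%). Cdk1 stood at 32.7% and 65.1%, and Ccnb2 at 20.1% and 56.8%. The extremes in CD25+CD49f- cells were Kif23 at -44.4% and Melk at 78.3%, and in CD25+CD49f+ cells they were 8.21% for Kif23 and 112% for Melk.

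Other genes of the cell cycle were taken from lists. Of 32 DNA replication genes measured, 26 were higher and 1 lower with CD49f in CD25- cells (median 0.90), with Uhrf1, which copies DNA methylation, at 2.44, Rrm2, a subunit of ribonucleotide reductase, at 2.96 and the DNA ligase Lig1 at 1.38, while Pole2, a polymerase subunit, was at -0.46. Among CD49f- cells 21 were higher with CD25 and 1, Pole2, was lower (median 0.57), with Uhrf1 at 1.46. Among CD49f+ cells 1, Pclaf, which binds the replication clamp, was called lower with CD25 (-0.93, adjusted p = 0.0146), 8 were lower at an unadjusted p under 0.05, and the list's median was -0.12. In CD25+ cells Pclaf was the 1 gene of the list called higher with CD49f (0.96, adjusted p = 0.0497), and 13 were higher at an unadjusted p under 0.05. Whether replication and mitosis genes differ in these comparisons was not tested.

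Other kinetochore genes followed with 22 of 30 higher with CD49f in CD25- cells (median 1.03), with the smallest p for Cenpk (2.06), Spc25 (2.03) and Spc24 (1.58), and 12 were lower with CD25 among CD49f+ cells, with Spc25 at -0.95, Ska3 at -1.0 and Nuf2 at -0.85. In CD25+ cells 0 were called with CD49f in limma, and 11 were higher at an unadjusted p under 0.05. Of 26 other spindle, kinesin and condensin genes, 16 were higher with CD49f in CD25- cells, among them Aspm, a spindle pole protein (2.09), Stmn1, which frees tubulin (1.77), and the condensin subunit Ncaph (1.85). Aspm (-1.17), Kif18b (-0.72) and Ncapd2 (-0.90) were among the 10 lower with CD25 among CD49f+ cells. Of 19 genes of the anaphase-promoting complex and its targets, 6 were called higher with CD49f in CD25- cells, with a median over the list of 0.17, and the 3 with the smallest p were Espl1 (separase, which cuts cohesin, 1.58), Pttg1 (securin, its inhibitor, 2.07) and Fbxo5 (Emi1, an inhibitor of the complex, 1.39). Espl1 was also higher with CD49f in CD25+ cells (0.78, adjusted p = 0.0106).

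Genes that control mitotic entry and its transcription were higher with CD49f in CD25- cells in 10 of 22 cases and lower in 1, Lin52 (-0.39), a subunit of the complex that binds CHR elements. The smallest p were those of E2f8 (2.0) and E2f7 (1.44), repressors that act late in S phase, and of Ccnf (1.58), a subunit of a ubiquitin ligase. E2f8 and Ccnf were also higher with CD49f in CD25+ cells, by 0.60 (adjusted p = 0.0154) and 0.63 (adjusted p = 0.0215), and lower with CD25 among CD49f+ cells, by -0.80 and -0.78. Cdc25b, a phosphatase that activates Cdk1, fell by 1.21 with CD25 among CD49f+ cells (adjusted p = 2.20e-07). Of 13 genes of G1 to S entry, 11 were higher with CD49f in CD25- cells, with the smallest p for Gmnn (geminin, 2.20), E2f2 (1.11) and Ccne2 (2.20). Of 15 genes of quiescence and arrest, 3 were higher with CD49f in CD25- cells, the inhibitors Cdkn2c (1.68), Cdkn1a (0.52) and Cdkn1b (0.37), and 2 were lower, Pik3ip1, which restrains PI3 kinase (-1.21), and the resting-cell factor Foxo1 (-0.22). Cdkn2c was lower with CD25 among CD49f+ cells (-0.77, adjusted p = 6.83e-06), as was Rgcc, a gene tied to cell cycle control (-1.03), which was also the 1 gene of the list called with CD49f in CD25+ cells (-1.10, adjusted p = 0.0163).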

How the data were processed

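The deposited table held log2 expression values per probe set and array, which the authors made with RMA per the submitters' processing notes (its version: not given in the sources used here), and the values entered the fits without another normalization. Of 45101 probe sets, 34958 named 1 gene in the array annotation, 932 several and 9211 none, and 34754 of the 34958 matched RefSeq genes (GRCm38.p6) by Entrez identifier. Each gene was represented by its probe set with the highest mean, giving 18194 genes. Groups were taken from the titles. Contrasts among them came from lmFit and eBayes of limma 3.58.1, run under R 4.3.3, with p-values adjusted over all genes by the Benjamini-Hochberg method; the fit was tested on simulated data. Figures and motif searches used Python 3.11.15 and matplotlib 3.10.9.

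The members, lists and naming rule were chosen with earlier results of these data known. Levels by array are given for the first 2 measured members of each role; genes off the common order and Depdc1a were added to these after their values were seen. Other members are given by differences and counts, with the 3 largest and 3 smallest of each comparison, and other cell cycle genes mostly by the smallest p of each list. Alternatives were leaving out each array, replicate blocks, array weights, a robust trended variance, other scalings, probe set choices, the brighter genes, the compared groups alone, stricter thresholds and arrays split by Y-linked transcripts. After the data were seen, 3 alternatives were added: leaving out the 4 arrays with the lowest mean correlation with their gate, a covariate for the Actb difference, and a fit over every probe set. Proteins were not analysed here.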

Additional observations from a re-analysis of the deposited data

Results flagged for a closer look

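The 44 genes and their mean were tested in each of the 4 gates for a single array far from the others, and 19 of these 180 tests marked one. For a single group chance marks about 1 in 20, and tests that share arrays are not independent. Replicate 1 of CD25-CD49f+ did so 9 times, always at the low end: 9.38 for Cks2, 6.65 for Nek2, 6.50 for Melk, 6.34 for Bub1, 7.18 for Cenpf, 8.31 for Smc2, 8.18 for Cep55, 6.56 for Ect2 and 5.92 for Depdc1a. It held the lowest value of its gate in 28 of 44 members. Replicate 7 of CD25-CD49f- was low for Cks2 (6.05), Cdca8 (5.09) and Nusap1 (4.82) and high for Dlgap5 (6.82). Replicate 4 of CD25+CD49f- was low for Cenpe (4.90), Mki67 (7.95) and Cep55 (7.15), and replicate 5 of that gate for Melk (5.96). Replicate 4 of CD25-CD49f- was low for Ncapg (4.64), and replicate 2 of CD25+CD49f+ was high for Ect2 (7.23). Both CD25- arrays named first are among the 4 that correlated least with their gate.

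The CD49f difference was unequal in the CD25 gates for 37 members by the limma test of the interaction, smaller in CD25+ cells in each. The interaction was -1.72 for Cdk1, -1.87 for Ccnb2, -1.30 for Plk1, -1.22 for Aurka, -1.75 for Bub1, -1.11 for Bub1b, -1.69 for Cdc20 and -1.92 for Ube2c. It was -1.96 for Birc5, -1.86 for Cdca8, -1.38 for Kif20a, -1.11 for Kif11, -1.84 for Nusap1, -1.85 for Top2a, -1.93 for Mki67, -2.29 for Cep55 and -1.52 for Ect2.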

How the results depend on the processing

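The main counts were 42 members called for CD49f in CD25- cells, 14 for CD49f in CD25+ cells, 36 for CD25 in CD49f+ cells, 17 for CD25 in CD49f- cells and 37 in the interaction, of 2443, 332, 1040, 2551 and 966 genes in all. Leaving out each array in turn gave 42 to 42, 5 to 19, 31 to 39, 13 to 22 and 34 to 38 members, and 2126 to 2720, 257 to 432, 785 to 1325, 2245 to 2768 and 773 to 1128 genes. For CD49f in CD25+ cells, array weights gave 27 members, median scaling 8, an adjusted p under 0.01 6, a difference of at least 1 5, and the fit without the 4 arrays that stood apart 27. Arrays without Y-linked transcripts gave 0 members there, and Y-linked arrays without Xist also 0. A difference of at least 1 left 17 members for CD25 in CD49f+ and 4 in CD49f- cells, and an adjusted p under 0.01 left 11 in the latter. Arrays without Y-linked transcripts gave 10 for CD25 in CD49f- cells. Y-linked arrays without Xist gave 8 for CD25 in CD49f+ cells, 3 in CD49f- cells and 8 in the interaction. Over all genes, array weights gave 762 for CD49f in CD25+ cells, 3742 for CD49f in CD25- cells, 3083 for CD25 in CD49f+ cells and 2273 in the interaction. In the order CD49f in CD25+ cells, CD25 in CD49f+ cells and interaction, an adjusted p under 0.01 gave 211, 675 and 599 genes and leaving out the 4 arrays 588, 2361 and 1710. The brighter genes alone gave 203 for CD49f in CD25+ cells. In the order CD49f in CD25+ cells, CD49f in CD25- cells, CD25 in CD49f+ cells, CD25 in CD49f- cells and interaction, a difference of at least 1 gave 106, 431, 199, 526 and 402 genes, arrays without Y-linked transcripts 119, 1340, 493, 1284 and 370, and Y-linked arrays without Xist 92, 1080, 264, 1004 and 242. The smaller sets hold 12 and 10 arrays; other causes were not tested.

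Over single members and all settings, 7855 values kept their side of the threshold, and 32 of these were uncalled values that changed sign. Of the others, 157 newly passed, 261 no longer passed and 8 reversed with another probe set. Those 8 were Cdca3 and Tpx2 for CD49f in CD25- cells, at 0.63 and 0.75 with the mean of probe sets and at 2.04 and 2.60 with the most variable one, Tpx2 for CD49f in CD25+ cells at 0.98, and Cdca3 at -0.95 and 0.44 for CD25 in CD49f+ and CD49f- cells and at -1.39 in the interaction, all with the most variable probe set. Over all gates, same-numbered arrays did not deviate together on average (mean correlation 0.04 over 29 pairs). Single correlations ran from -0.51 to 0.41, with 15 of 29 over 0.1. The main fit did not take the numbers to pair the samples, but an average over all gates cannot decide whether particular gates are paired. In the CD25+CD49f- gate, replicates 1 to 4 had member means of 6.81, 6.99, 6.93 and 6.58. In CD25+CD49f+ they were 7.23, 7.66, 7.63 and 7.18, in the same rank order. In both gates replicates 1 and 2 carried Xist and replicates 3 and 4 Y-linked transcripts. The labels do not say whether these arrays are paired. With the replicate number as a block, the member counts were 42, 15, 36, 19 and 37 in the order given first, and with a random block 42, 13, 36, 17 and 37. The compared groups alone could not be run for the interaction. The 4 or 5 arrays of the CD25+ gates limit what differences between them could pass the test, and arrays give no read depth.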
